A study of Mus musculus with 15 samples.

Results

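The 10 genes described here belong to the bone morphogenetic protein (BMP) pathway: the ligand genes Bmp2, Bmp4, Bmp5 and Bmp6, the receptor genes Bmpr1a and Bmpr2, the inhibitory SMAD genes Smad6 and Smad7, and the target genes Id1 and Id3. They were found by gene symbol among the 54532 genes of the liver and lung tables, and all 10 matched. The genes were selected on the difference between the diets within each tissue, with its measured values known, so their diet values are given as a description and carry no test. The rule that chose them does not use the contrast between lung and liver, which was tested.

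The study fed C57BL/6J mice, an inbred laboratory strain, a control diet (CS) or a diet with 2% phytosterols (PS), plant sterols that resemble cholesterol, and sequenced the poly-A RNA of liver and lung. All animals were wild type, the labels give an age of 28 weeks, although the times in the study's methods add up to a later age, and the methods describe them as male. There were 4 livers and 3 lungs from CS mice and 5 livers and 3 lungs from PS mice, with 1 library per organ, and all 6 mice with a lung library also have a liver library. Each library comes from a piece of whole organ, so in these bulk samples fewer cells of a type and less RNA per cell cannot be told apart.

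BMPs are secreted ligands of the TGF-beta superfamily. They bring together type I receptors, such as the product of Bmpr1a, and type II receptors, such as that of Bmpr2, which phosphorylate SMAD1, SMAD5 and SMAD9. With SMAD4 these proteins enter the nucleus and switch on genes that include Id1, Id3, Smad6 and Smad7, and the products of the last pair inhibit the signal in turn. In the liver, BMP2 and BMP6 from endothelial cells drive hepcidin, the hormone that limits iron uptake, and in the lung BMPR2 is known for its role in the pulmonary vessels.

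The bases before the start of transcription are shown for the members whose window held at most 1 exon base of the GENCODE M21 gene model, since Bmp5 is the member on which the lung results turn and Smad6 and Bmp4 are other members strongly expressed there. RefSeq promoter windows (build GRCm38.p6) were used for 7 of the 10 members, and none was used for Bmp2, Id1 and Smad7. The sequences below run 5′ to 3′ over the 250 bases before the start, on the gene's own strand. The Bmp5 window is chr9:75775115-75775364 on the plus strand, that of Smad6 is chr9:64022060-64022309 on the minus strand and that of Bmp4 is chr14:46390670-46390919 on the minus strand. Capitals mark CAGAC or its reverse complement GTCTG, the short SMAD-binding element.
Bmp5: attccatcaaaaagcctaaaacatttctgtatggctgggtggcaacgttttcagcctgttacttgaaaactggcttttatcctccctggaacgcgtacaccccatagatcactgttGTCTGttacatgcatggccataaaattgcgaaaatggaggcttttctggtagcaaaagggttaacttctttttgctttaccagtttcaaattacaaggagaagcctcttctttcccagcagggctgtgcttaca
Smad6: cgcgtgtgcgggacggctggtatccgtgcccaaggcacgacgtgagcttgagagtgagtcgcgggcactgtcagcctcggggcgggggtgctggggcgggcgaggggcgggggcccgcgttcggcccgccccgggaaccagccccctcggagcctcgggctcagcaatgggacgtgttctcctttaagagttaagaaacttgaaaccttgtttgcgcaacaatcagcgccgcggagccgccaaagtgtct
Bmp4: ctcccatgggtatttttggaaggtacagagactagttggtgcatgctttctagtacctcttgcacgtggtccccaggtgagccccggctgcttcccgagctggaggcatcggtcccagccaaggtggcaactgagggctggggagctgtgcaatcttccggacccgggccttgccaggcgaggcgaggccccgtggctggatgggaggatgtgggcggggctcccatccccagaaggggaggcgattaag

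The Bmp5 window held the element once, with its first base 134 bases before the start, and the windows of Smad6 and Bmp4 held none. Over the same length, 42.2% of all 32851 promoter windows held CAGAC on either strand, and 3 of the 7 member windows did, those of Bmp5, Bmp6 and Id3. The GC-rich element GGCGCC, which reads the same on both strands, was found in 9.6% of all windows and in 2 member windows, those of Bmpr1a and Bmpr2. Exons of the GENCODE M21 models covered all 250 bases of the Bmpr2, Bmp6 and Id3 windows and 141 bases of the Bmpr1a window. The Bmp5 window was the poorest in G and C of the 7, at 42.8%, against a median of 52.4% over all windows. A match of these letters is a description of the window.

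Library totals ranged from 14410117 to 17625179 counts in the liver and from 17934930 to 19396057 in the lung, and these totals limit the precision of the low genes. The tissue labels matched their markers. Summed over 5 hepatocyte genes, CPM (counts divided by library size, scaled with TMM over both tissues) ran from 113066 to 178051 in the livers and from 3.77 to 71.6 in the lungs, and over 6 alveolar epithelial genes from 36.7 to 79.8 in the livers and from 12489 to 21006 in the lungs. Of the airway and heart muscle markers, Scgb3a2, Krt5, Myh6 and Nppa had a count of 0 in every liver.

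The level of the pathway was described first, by organ. Per length, on the deposited FPKM scale (fragments per kilobase of gene, scaled to library size), the ID genes led in both organs. They encode small inhibitors of basic helix-loop-helix factors. In CS lungs the mean FPKM was 154 ± 18.3 (SD, n = 3) for Id3 and 154 ± 13.2 for Id1, then 105 ± 40.9 for Smad6, 74.9 ± 12.3 for Bmp6 and 46.4 ± 7.14 for Bmpr2. Of these neighbours, Id3 and Id1 did not differ beyond their spread, Smad6 spread over both its neighbours, and Bmp6 and Bmpr2 were apart. The lower members were Bmp4 at 27.2 ± 1.48, Smad7 at 19.7 ± 2.47, Bmpr1a at 16.1 ± 1.23, Bmp5 at 6.82 ± 0.778 and Bmp2 at 2.21 ± 0.371 FPKM. From Bmpr2 downwards no neighbouring pair in this order overlapped.

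Within CS livers the order was another. Id3 had a mean of 25.6 ± 10.5 FPKM (SD, n = 4), Id1 of 7.71 ± 4.01, Bmpr1a of 4.39 ± 1.25 and Bmp2 of 3.20 ± 1.13. Id3 lay above the rest, while Id1, Bmpr1a and Bmp2 overlapped in turn. Smad7 (1.60 ± 0.200), Smad6 (1.56 ± 0.623) and Bmpr2 (1.30 ± 0.193) did not differ beyond their spread. Bmp4, Bmp6 and Bmp5 were at 0.878 ± 0.620, 0.633 ± 0.285 and 0.301 ± 0.224 FPKM, also within each other's spread. On the CS diet Bmp2 thus had the highest FPKM of the 4 ligands within the liver and the lowest within the lung. On the PS diet Bmp5 (1.06 ± 0.366 FPKM, n = 3) had the lowest mean in the lung, with a range that overlapped that of Bmp2 at 1.85 ± 0.465, and Id3 at 14.3 (n = 5) again led in the liver.

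The next comparison asked how much each member differed between lung and liver in mice on the same diet. On the CS diet 9 of the 10 members passed an adjusted p of 0.05 in edgeR's quasi-likelihood test with Benjamini-Hochberg adjustment, 8 of them higher in the lung and Bmp2 lower. Over all 17696 genes tested the shares were 67.1% called, 37% higher and 30% lower, and the member counts stand against these shares. On the PS diet 8 members were called, 7 higher and Bmp2 again lower, against 68.7% called, 38% higher and 30.7% lower over all genes. The median log2 difference of all genes was 0.18 on both diets, and the member values below can be read against it. The 2 diets use different mice, and on each diet the lung and liver libraries share animals.

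Among the 4 member ligands, Bmp6, an inducer of hepcidin in the liver, differed by the most. On the scale common to both tissues its CPM in the CS livers was 5.28, 1.71, 4.44 and 2.78, and in the CS lungs 195, 158 and 143. Every lung was far above every liver, with a log2 difference of 5.53 (SE 0.45, adjusted p = 1.80e-08). On the PS diet the lungs were at 152, 108 and 106 CPM against 0.784 to 5.48 in the livers, a log2 difference of 5.40 (SE 0.41, adjusted p = 6.71e-09). Bmp6 shares 224 exon bases with Txndc5 on the opposite strand, and reads there cannot be assigned by strand with this kit.

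Bmp4, a ligand active in lung development, stood at 32.6 to 35.9 CPM in CS lungs and 1.28 to 5.50 in CS livers. The log2 difference was 3.63 (SE 0.44, adjusted p = 1.86e-06) on the CS diet and 3.87 (SE 0.41, adjusted p = 3.23e-07) on the PS diet. Bmp2, the other hepcidin-inducing ligand, went the other way. Its CPM was 15.5, 24.2, 12.8 and 12.6 in CS livers and 4.59, 5.13 and 3.65 in CS lungs, and every lung was below every liver. The log2 difference was -1.86 (SE 0.34, adjusted p = 0.000134) on the CS diet and -1.38 (SE 0.33, adjusted p = 0.00130) on the PS diet.

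Bmp5, a ligand close in sequence to BMP6, differed between the organs on 1 diet by this test. Its CPM was 17.1, 13.7 and 15.9 in CS lungs and 3.17, 0.379, 2.48 and 0.958 in CS livers. These groups lay apart, and the log2 difference was 3.13 (SE 0.67, adjusted p = 0.000561). On the PS diet the lungs had 2.09, 1.74 and 3.24 CPM and the livers 0 to 1.84, and the ranges overlapped. There the log2 difference was 1.35 (SE 0.65, adjusted p = 0.0766). With the mouse as a block in the 6 animals that gave both organs, it was 2.92 (SE 0.77, adjusted p = 0.00831). On that diet it was also called with DESeq2 (adjusted p = 0.0335), with DESeq2's size factors (0.0481) and without liver CS replicate 2 (0.0394) or liver PS replicate 4 (0.0355). The difference between the diets in this contrast was not tested, since the diet values chose the gene.

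The receptors did not share 1 pattern. Bmpr2, the type II receptor gene, had 548, 462 and 407 CPM in CS lungs and 33.8, 26.6, 39.4 and 34.1 in CS livers. The log2 difference was 3.82 (SE 0.24, adjusted p = 8.38e-10) on the CS diet and 3.23 (SE 0.22, adjusted p = 1.36e-09) on the PS diet. Bmpr1a, a type I receptor gene, was close to even between the organs. It had 62.6, 55.9 and 54.9 CPM in CS lungs and 48.9, 23.6, 47.8 and 40.0 in CS livers, a log2 difference of 0.53 (SE 0.25, adjusted p = 0.0731). On the PS diet the log2 difference was 0.22 (SE 0.24, adjusted p = 0.426), with overlapping ranges. On the CS diet Bmpr1a was called with DESeq2 (adjusted p = 0.0219), with its size factors (0.0266), with at least 10 counts in every library (0.00830) and without liver CS replicate 1 (0.0329).

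Both inhibitory SMAD genes were higher in the lung. Smad6 had 276, 143 and 155 CPM in CS lungs and 11.0, 6.16, 7.43 and 4.12 in CS livers, a log2 difference of 4.73 (SE 0.36, adjusted p = 8.08e-09), and 4.05 (SE 0.32, adjusted p = 1.07e-08) on the PS diet. Smad7 differed less, by 2.29 (SE 0.24, adjusted p = 2.80e-07) and 2.26 (SE 0.22, adjusted p = 1.13e-07). The target genes followed in the same direction. Id1 had 108, 103 and 91.5 CPM in CS lungs against 6.50, 18.7, 7.68 and 18.4 in CS livers, and its log2 difference was 2.98 (SE 0.45, adjusted p = 2.18e-05) on the CS diet and 3.27 (SE 0.42, adjusted p = 3.26e-06) on the PS diet. Id3 differed by 1.25 (SE 0.29, adjusted p = 0.00115) and 2.42 (SE 0.27, adjusted p = 7.40e-07).

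**Figure D1:**
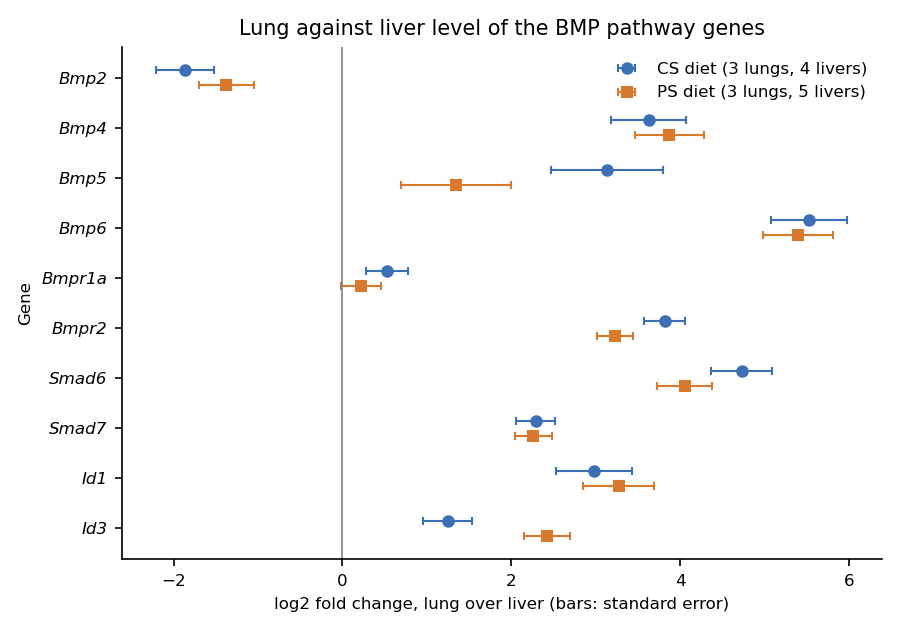
Log2 fold change of lung over liver for the 10 members, on the CS diet (circles, 3 lungs and 4 livers) and the PS diet (squares, 3 lungs and 5 livers), with bars of 1 standard error from edgeR. Bmp6 lies farthest to the right at 5.53 and 5.40, Bmp2 alone lies left of 0, and Bmpr1a lies nearest to 0.

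Endothelial cells both make and receive BMPs, and the summed values of their markers moved with this contrast. The summed CPM of 8 endothelial genes, scaled over both tissues, was 59.5 to 143 in the 9 livers and 1705 to 2028 in the 6 lungs. For 5 genes of the liver sinusoidal endothelium it was 74.6 to 192 in the livers and 203 to 278 in the lungs. The lung sum was mostly Lyve1, at 328 to 458 CPM scaled within the lung and at most 10.2 within the liver. On the same scales Stab2, Clec4g and Oit3 went the other way, at most 2.21 CPM in any lung and at least 4.37 in every liver. The ranges of Fcgr2b overlapped. For 7 stellate cell and fibroblast genes the sum was 162 to 293 in the livers and 452 to 662 in the lungs. The part of these cell types in the differences was not tested.

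In the lung the study compared PS with CS mice, and the values below use CPM scaled within the lung. Of the 10 members 1 passed an adjusted p of 0.05, Bmp5, which was lower on the PS diet, while 9.22% of the 16717 genes tested passed, 4.80% higher and 4.43% lower. The values chose these genes, so nothing is read from that count. The median log2 difference was -0.29 over the 10 members and 0.01 over all genes tested, and 6 members had a lower and 4 a higher value on the PS diet.

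Bmp5 had 30.1, 24.0 and 28.1 CPM in the CS lungs and 3.67, 3.13 and 6.01 CPM in the PS lungs, from counts of 467 to 595 and of 56 to 109. The groups lay apart, and the lowest CS lung was well above the highest PS lung. The mean was 27.4 ± 3.10 CPM (SD, n = 3) on the CS diet and 4.27 ± 1.54 on the PS diet, a log2 difference of -2.68 (SE 0.26), and the CS level was 6.40 times the PS level. Without any 1 library the log2 difference ran from -3.01 to -2.50, and without lung CS replicate 3, where it was -2.63 and edgeR called 0 of 17190 genes in all, no member was called. Bmp5 shares 1878 exon bases with the opposite-strand gene Gm26903, which had 0 to 3 counts in the lungs.

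Among the other ligands, Bmp6 had 343, 277 and 254 CPM in the CS lungs and 268, 193 and 197 in the PS lungs. PS replicate 1 lay inside the CS range, and the log2 difference was -0.41 (SE 0.19). Bmp4 had 62.5, 57.1 and 63.4 CPM against 61.6, 89.5 and 63.1, with PS replicate 2 above the rest and a log2 difference of 0.23 (SE 0.17). Bmp2 was low on both diets, at 6.46 to 8.99 CPM in the CS lungs and 4.97 to 8.11 in the PS lungs, with a log2 difference of -0.26 (SE 0.26).

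Both receptor genes had lower means on the PS diet. Bmpr1a stood at 110.3, 98.1 and 97.0 CPM in the CS lungs and 90.2, 89.3 and 60.3 in the PS lungs. The ranges did not overlap, although PS replicates 1 and 2 were close to the CS lungs and PS replicate 3 was far below, and the log2 difference was -0.35 (SE 0.18). Bmpr2 had 965, 811 and 720 CPM against 834, 612 and 551, with overlapping ranges and a log2 difference of -0.32 (SE 0.21).

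Of the inhibitory SMAD genes, Smad6 varied more than Smad7 among lungs of the same diet. It had 485, 250.3 and 275 CPM in the CS lungs and 211, 157 and 353 in the PS lungs. CS replicate 1 and PS replicate 3 stood above the others of their group, and PS replicate 3 alone of the PS lungs reached the CS range, with a log2 difference of -0.49 (SE 0.34). Smad7 showed 79.9 to 101 CPM on the CS diet and 72.0 to 112 on the PS diet, and a log2 difference of 0.03 (SE 0.18). The ID genes had higher means on the PS diet. Id1 was at 190.1, 181 and 162 CPM in the CS lungs and at 300.1, 185 and 189.6 in the PS lungs, where replicate 1 alone stood above the CS range, and the log2 difference was 0.34 (SE 0.21), or 0.07 without that library. Id3 had 312, 259 and 256 CPM against 400.0, 303 and 372, a log2 difference of 0.38 (SE 0.17), with PS replicate 2 inside the CS range.

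**Figure D2:**
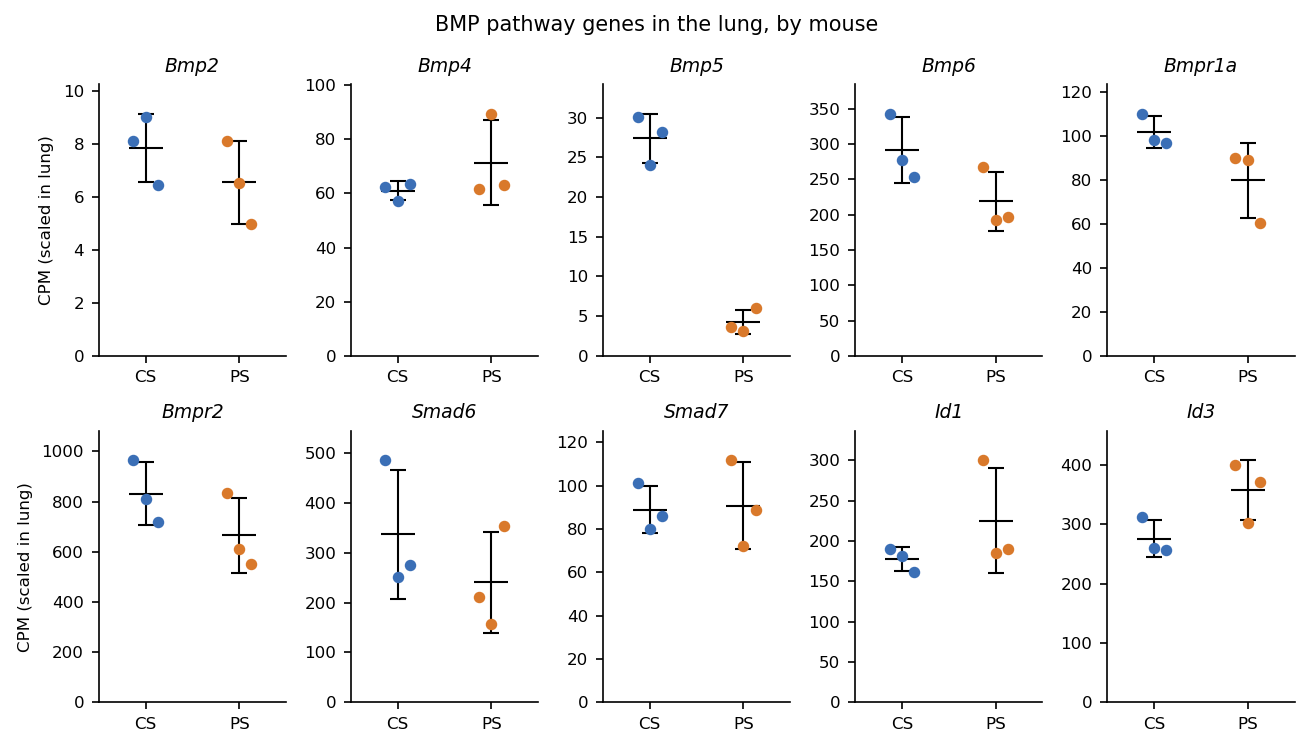
CPM of each member in the 3 CS and 3 PS lungs (points, 1 per mouse), scaled within the lung, with the mean and SD in black; every axis starts at 0. For Bmp5 the 3 PS lungs lie between 3.13 and 6.01 CPM, below all CS lungs.

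Cell type markers were set beside these values. The summed CPM of 6 alveolar epithelial genes was 21915 to 22346 in the CS lungs and 24597 to 36900 in the PS lungs, without overlap. Of these genes 4 were higher and 2 lower in value, with 0 past the adjusted threshold. Sftpc made up most of the sum, at 12878 to 27052 CPM (log2 0.82, SE 0.26, adjusted p = 0.0764 by edgeR). The others had log2 differences from -0.26 for Lamp3 to 0.19 for Ager. The sum of 7 stellate cell and fibroblast genes was 795 to 936 and 928 to 1188. The sum of 8 endothelial genes overlapped, at 3016 to 3355 and 3081 to 3635, with 4 genes higher and 4 lower in value, of which 1 fell past the adjusted threshold. Macrophage genes summed to 102 to 149 and 134 to 179, and 1 of the 4 tested fell past that threshold. Lymphocyte genes summed to 143 to 259 and 163 to 213 and airway genes to 42511 to 66114 and 35496 to 66075, with 0 past it by edgeR at the adjusted or unadjusted threshold. Heart muscle genes summed to 158 to 237 in the CS lungs and 32.4 to 416 in the PS lungs, and fat cell genes to 65.5 to 210 and 15.4 to 172. Their part in the member values was not tested.

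The rest of the pathway in the lung was read from 67 genes in 7 lists that hold no member. These genes were tested, although the lists were drawn up with earlier results of the data known. Of them 55 were measured above the filter. Past the adjusted threshold were 7 lower and 1 higher, against 4.43% and 4.80% of all genes, and the median log2 difference was -0.26 over the 55 genes and 0.01 over all genes.

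Of the 4 signal-carrying SMAD genes 1 rose and 1 fell past the threshold. Smad1, a receptor-activated SMAD of the BMP branch, rose from 33.9, 36.1 and 34.2 CPM in the CS lungs to 51.0, 59.8 and 48.2 in the PS lungs (log2 0.61, SE 0.14, adjusted p = 0.0395). Smad4, the shared partner, fell from 82.3, 88.7 and 86.0 to 59.1, 52.0 and 65.5 CPM (log2 -0.54, SE 0.14, adjusted p = 0.0455). Smad5 and Smad9, the remaining genes of that list and named after their values were seen, had log2 differences of -0.79 (SE 0.25, adjusted p = 0.0717) and -0.50 (SE 0.18, adjusted p = 0.0952).

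Of the other ligands 1 of 4 tested fell. Bmp3, an atypical ligand that opposes BMP signalling, went from 62.9, 57.4 and 51.8 CPM to 32.9, 32.9 and 32.0 (log2 -0.82, SE 0.14, adjusted p = 0.0211). Of the 10 other receptors and co-receptors only Acvr2a, a type II receptor gene, fell past the threshold (log2 -0.69, SE 0.18, adjusted p = 0.0457). Acvr2a shares 446 exon bases with Orc4 on the opposite strand, whose mean went from 31.7 to 46.9 CPM.

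Among the antagonists 2 of 14 tested fell and none rose. Fstl3, which encodes a binding protein of activin, went from 8.14, 12.7 and 9.39 CPM to 1.83, 1.62 and 5.13 (log2 -1.81, SE 0.44, adjusted p = 0.0412, or -2.54 without PS replicate 3), and it shares 1157 exon bases with Prss57 on the opposite strand, which had 0 to 7 counts in the lungs. Grem1, a secreted antagonist that binds BMP2 and BMP4, fell from a mean of 1.58 to 0.358 CPM (log2 -2.11, SE 0.47, adjusted p = 0.0346), with no more than 41 counts in any lung. In the TGF-beta branch, which runs beside the BMP branch, Tgfb2 and Smad2 fell by 0.89 (SE 0.17, adjusted p = 0.0266) and 0.69 (SE 0.14, adjusted p = 0.0319) on the log2 scale, out of 9 genes tested.

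By edgeR's adjusted p 0 genes passed among the 9 other targets or the 5 iron genes tested. At the unadjusted threshold 4 and 2 did, against 5040 of all 16717 genes tested in the lung. Id4, a further ID gene, had a log2 difference of -0.70 (SE 0.19, adjusted p = 0.0507), Atoh8, a BMP target in endothelium, of 0.61 (SE 0.16, adjusted p = 0.0509) and Skil, a SMAD corepressor, of -0.76 (SE 0.27, adjusted p = 0.0974). Of the iron genes, Tfrc, the transferrin receptor, had -0.75 (SE 0.23, adjusted p = 0.0666), Hfe -0.36 (SE 0.14, adjusted p = 0.137) and Slc40a1, the iron exporter, -0.16 (SE 0.19, adjusted p = 0.586). Under the 13 alternatives, DESeq2 among them, Id4, Atoh8 and Tfrc were each called by 4 and Skil by 1, with lowest adjusted p of 0.0136, 0.0122, 0.0177 and 0.0397 and highest of 0.201, 0.163, 0.198 and 0.273. The count of 8 called genes was 0 without CS replicate 1, 2 or 3 or PS replicate 2, fits in which the calls over all genes also fell from 1542 to 23, 26, 0 and 9. It was 15 with DESeq2 and 4 or 5 with limma-trend on FPKM.

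**Figure D3:**
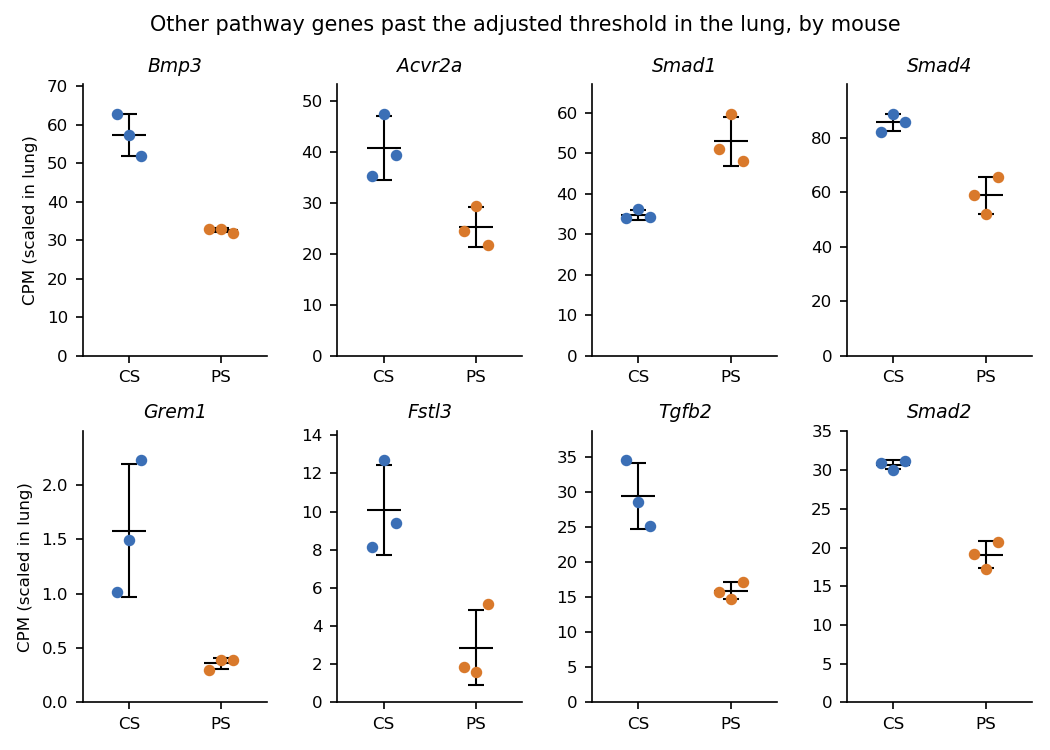
CPM of the 8 other pathway genes past the adjusted threshold, in the 3 CS and 3 PS lungs (points, 1 per mouse), scaled within the lung, with the mean and SD in black and axes from 0. The PS lungs lie above the CS lungs for Smad1, at 48.2 to 59.8 CPM, and below them for the other 7 genes.

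In the liver the same question was put to 5 PS and 4 CS mice, with CPM scaled within the liver. None of the 10 members passed the adjusted threshold, against 0.00758% of the 13195 genes tested, which is 1 gene. At an unadjusted p of 0.05, 2 members did, Bmp2 and Id3, both lower on the PS diet, against 7.55% of all genes and 3.58% in that direction. As in the lung, the values chose these genes and nothing is read from the count, which was 1 without CS replicate 2 or 4 or PS replicate 2 or 3. For every member the ranges of the diets overlapped, but the share of all genes with such overlap was not counted, so nothing is read from this. The median log2 difference was -0.07 over the members and -0.03 over all genes tested.

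Bmp2 had 10.5, 17.2, 8.71 and 8.39 CPM in the CS livers and 5.56, 4.89, 4.31, 7.14 and 10.2 in the PS livers. PS replicate 5 lay among the CS livers and the other PS livers lay below them all, and the log2 difference was -0.80 (SE 0.30). Bmp4, Bmp5 and Bmp6 were close to the limit of detection, with 13 to 58, 0 to 39 and 7 to 65 counts per liver. Their log2 differences were -0.07 (SE 0.53), -0.94 (SE 0.82) and -0.31 (SE 0.51), and the PS liver with a Bmp5 count of 0 allows up to 3 counts, or 0.231 CPM.

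The receptor genes were steadier. Bmpr1a had 16.8 to 33.2 CPM in the CS livers and 20.5 to 35.5 in the PS livers, a log2 difference of -0.08 (SE 0.23). Bmpr2 had 18.9 to 26.8 and 20.5 to 32.8 CPM, a log2 difference of 0.23 (SE 0.19). Smad6 (2.75 to 7.45 and 3.67 to 6.90 CPM) and Smad7 (5.83 to 7.88 and 5.17 to 9.83 CPM) differed by 0.14 (SE 0.30) and 0.01 (SE 0.24).

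The ID genes did not share a pattern in the liver. Id3 had 44.1, 39.8, 26.1 and 70.0 CPM in the CS livers and 32.8, 17.0, 21.7, 21.9 and 32.7 in the PS livers. Only CS replicate 3 lay within the PS range, and the log2 difference was -0.84 (SE 0.29). Id1 had 4.41, 13.3, 5.22 and 12.3 CPM against 20.3, 5.51, 5.83, 5.96 and 6.96, so that the CS livers fell into a low and a high pair and PS replicate 1 stood alone. The log2 difference of Id1 was 0.02 (SE 0.47), and -0.54 without that library.

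**Figure D4:**
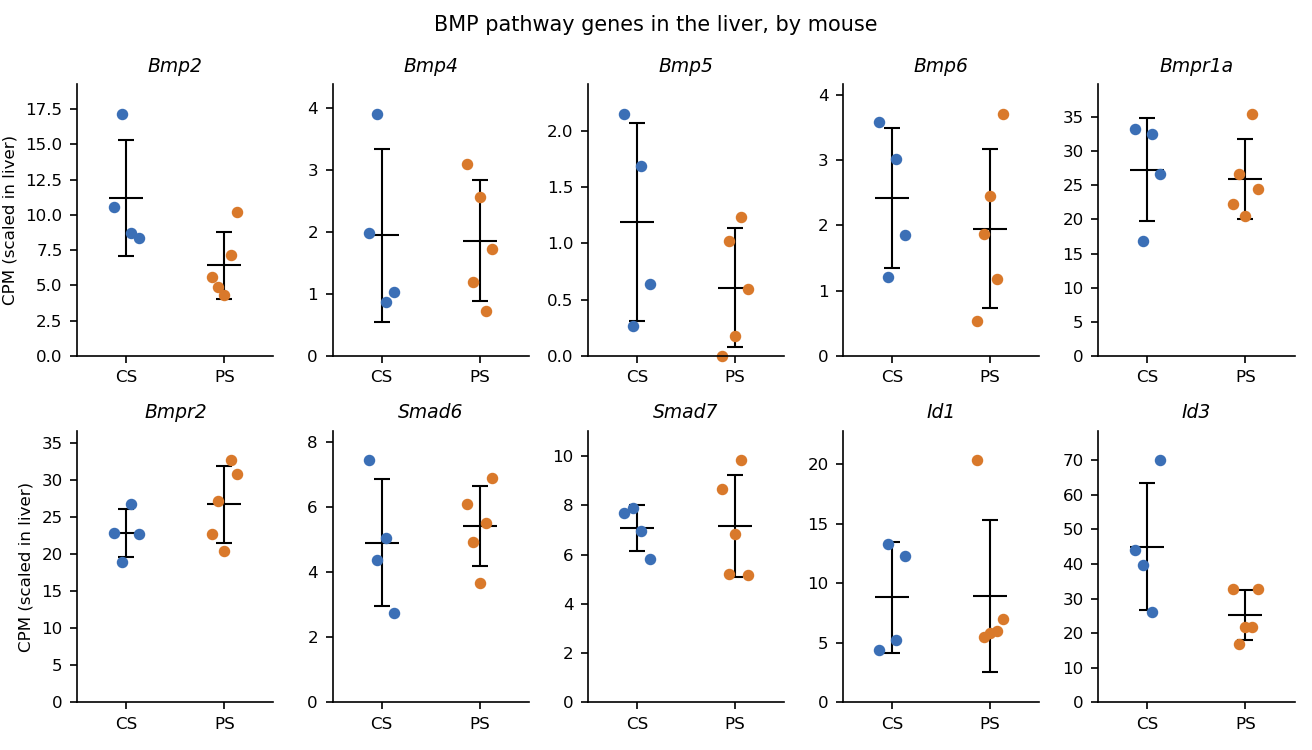
CPM of each member in the 4 CS and 5 PS livers (points, 1 per mouse), scaled within the liver, with the mean and SD in black and axes from 0. The diets overlap for every member; for Bmp2 and Id3 the PS means of 6.42 and 25.2 CPM lie below the CS means of 11.2 and 45.0.

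**Figure D5:**
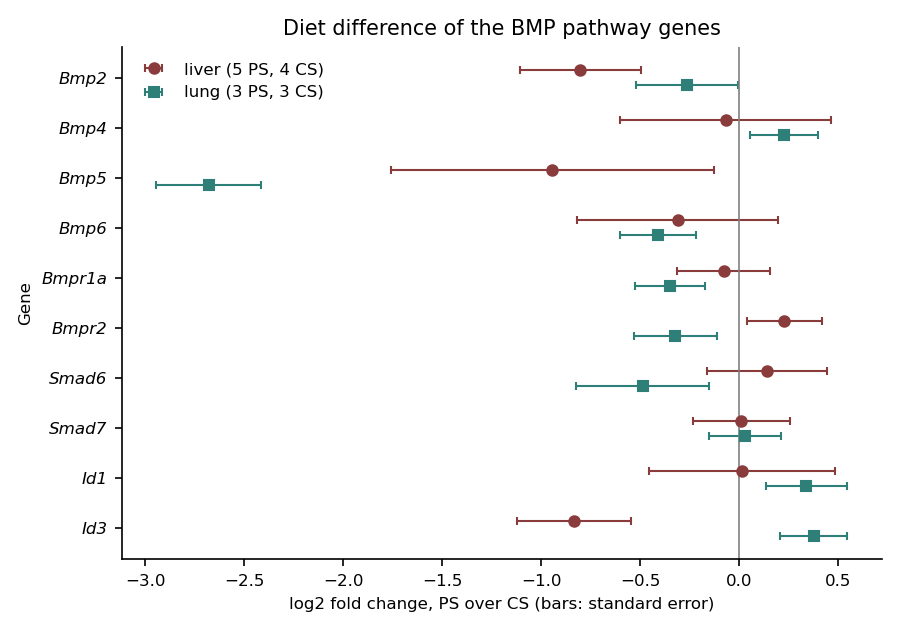
Log2 fold change of PS over CS for the members in the liver (circles) and lung (squares), with bars of 1 standard error from edgeR. Bmp5 in the lung lies farthest from 0 at -2.68, and Id3 lies at -0.84 in the liver and 0.38 in the lung.

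Markers of several cell types other than hepatocytes had lower values in the PS livers. The summed CPM of 8 endothelial genes was 69.1 to 102 in the CS livers and 40.6 to 79.8 in the PS livers, and all 8 genes had a lower value, with 0 past the adjusted and 1 past the unadjusted threshold. For the 5 sinusoidal endothelial genes the ranges were 88.5 to 126 and 50.9 to 130, with 4 of 5 lower in value. For 7 stellate cell and fibroblast genes they were 125 to 199 and 110.3 to 157, with 7 of 7 lower, and the 3 lymphocyte genes tested were all lower in value. Macrophage genes summed to 129 to 199 and 49.0 to 144 CPM, with 5 of 5 lower in value. The 5 fat cell genes summed to 30.9 to 79.1 and 6.34 to 25.8. Only 2 of them were tested in the liver, Cidec at 3.40 to 72.3 CPM and Fabp4 at 2.94 to 8.52. Adipoq, Plin1 and Lep reached at most 0.233, 0.175 and 0.0552 CPM there, so this sum is no measure of fat cells in the liver. PS replicate 5, the PS liver with the highest Bmp2, also had the highest endothelial sum of the PS livers. The part of these cells in the Bmp2 and Id3 values was not tested.

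Hepcidin and its regulators are the best known output of the BMP pathway in the liver. All 8 iron genes were tested, and edgeR called 0 of them at the adjusted or at the unadjusted threshold. Hamp, which encodes hepcidin, had 174, 577, 204 and 532 CPM in the CS livers and 1527, 16.6, 157, 58.3 and 115 in the PS livers. The PS livers thus held both the highest and the lowest values, and the log2 difference was 0.01 (SE 1.02, adjusted p = 1.000), or -2.10 without PS replicate 1. That liver also had the highest Id1. Hamp2, its close paralog, had 2.43 to 182 and 9.02 to 59.8 CPM (log2 -0.86, SE 1.08, adjusted p = 0.930, or 2.41 without CS replicate 2), and reads common to both paralogs may be split between them.

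The other iron genes varied less. Hfe2, an earlier symbol of the BMP co-receptor hemojuvelin, had a log2 difference of -0.13 (SE 0.24), Hfe of -0.18 (SE 0.17) and Tfr2, a sensor of transferrin, of -0.02 (SE 0.16). Tmprss6, a protease that damps hepcidin, had -0.14 (SE 0.19), Slc40a1 0.08 (SE 0.22) and Tfrc 0.19 (SE 0.28).

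Of the 67 pathway genes outside the members, 45 were tested in the liver and edgeR called 0 at the adjusted threshold, with a median log2 difference of -0.16 against -0.03 over all genes. At the unadjusted threshold there were 3, against 7.55% of all genes, Fst and Id2 among them with lower values, and 5 to 7 without CS replicate 2, 3 or 4 or PS replicate 1 or 5. Id2, a further ID gene, was called with DESeq2 at an adjusted p of 0.0485. Its CPM was 191, 96.8, 122 and 201 in the CS livers and 101, 80.9, 59.4, 84.1 and 83.4 in the PS livers (log2 -0.90, SE 0.24, adjusted p = 0.311 in edgeR). Fst, which encodes the activin antagonist follistatin, went from 2.09 to 11.0 CPM in the CS livers to 0.927 to 2.79 in the PS livers (log2 -1.58, SE 0.46, adjusted p = 0.344).

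The remaining genes named from the lists passed neither threshold. Among ligands, Gdf2 and Bmp10, which act on endothelium, had log2 differences of -0.54 (SE 0.26) and -0.36 (SE 0.36), and Bmp7 0.14 (SE 0.33). Among receptors, Eng, an endothelial co-receptor, had -0.53 (SE 0.33), Tgfbr3 -0.48 (SE 0.26) and Acvr1, a type I receptor gene, 0.35 (SE 0.17). Smad9 had -0.97 (SE 0.53), Smad1 0.25 (SE 0.19) and Smad4 -0.15 (SE 0.26). Bambi, a pseudoreceptor, had -0.75 (SE 0.44), Ski, a corepressor, -0.36 (SE 0.21) and Atoh8 -0.32 (SE 0.32). In the TGF-beta branch, Tgfb1 had -0.57 (SE 0.28), Tgfbr2 -0.26 (SE 0.31) and Smad3 0.17 (SE 0.21).

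As a description of what varied with Id1, the genes with the highest Pearson r of log2 CPM were listed within each organ. Over the 9 livers they were 4933440N22Rik (r = 0.947), H13 (0.945), Phf20l1 (0.943), AI463229 (0.942) and Igf1 (0.935). Over the 6 lungs they were Hmgb1 (0.992), Ociad1 (0.992), Faap24 (0.985), Serpina3g (0.979) and Mfsd12 (0.977). These points share libraries, and with so few of them and many genes searched high values arise readily. PS replicate 1 held the highest Id1 in both organs, and the labels give both libraries to the same mouse.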

How the data were processed

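The members and the gene lists were chosen with earlier results of these data known. Paired-end reads of poly-A libraries, made with a kit that does not mark strand, were aligned by the authors with HISAT2 2.0.5 to mm10 (GRCm38) and counted per gene with featureCounts 1.5.0-p3, per the labels; the strand setting and gene model are not given in the sources used here. These counts were deposited unnormalized. The authors made the deposited FPKM values from them by gene length and a factor for each library, separately for each organ, so FPKM was compared within an organ.

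From the counts, edgeR 4.0.16 (R 4.3.3; TMM, filterByExpr, robust quasi-likelihood test) compared PS with CS in each organ, and lung with liver on each diet in 1 model of all 15 libraries. Adjustment over all genes tested followed Benjamini and Hochberg, with thresholds of 0.05. SE is the log2 fold change over the root of F. Alternatives were DESeq2 1.42.0 and its size factors, fits without the low-count filter or with a minimum of 10 counts per library, limma-trend (limma 3.58.1) on log2(FPKM + 1) and log2(FPKM + 0.1), a block, and leaving out each library. The fits were also run on simulated data with the spread estimated from these counts, and no result here rests on that run.

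Named genes were the 10 members, genes of 7 pathway lists past the adjusted threshold or otherwise the up to 3 largest differences per list (mean log2 CPM at or above 1), the iron genes tested in the liver, and the 5 genes most like Id1. Samples were grouped by tissue, diet and mouse from the labels. For the 6 mice with both organs the pairing comes from the animal, and deviations from the group means correlated by -0.05 to 0.11. Within an organ each library is a separate mouse. In GENCODE M21, exons of Bmp4, Bmp5, Bmp6, Bmpr1a, Acvr2a, Eng, Fst, Fstl3, Hamp2, Id4, Tgfb2 and Tgfbr3 overlap another gene, and no member had a near-identical copy (95% over 200 bases) other than such overlaps. Intervals for counts of 0 cover counting error only. The study's measurements other than RNA-seq were not analysed here. A single value that the named-gene rule would give is not reported here, although it enters the counts of its list.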

Additional observations from a re-analysis of the deposited data

Results flagged for a closer look

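Of 20 sets of member values in groups of 4 or 5 livers, 1 held a library far from the others: Id1 in PS replicate 1, at 20.3 CPM. The other 4 PS livers had 5.51 to 6.96 CPM. Chance alone sets about 1 in 20 such groups apart. The same liver had the highest Hamp, at 1527 CPM, and without it the log2 difference of Id1 between the diets was -0.54 in place of 0.02.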

How the results depend on the processing

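No result changed its direction while called under any alternative, and of the 1279 values of single genes 1187 stayed called or within 1 SE of the reported value, while 23 passed and 43 lost the threshold and 26 moved by more than 1 SE. The sign differed in 37 of them, 0 of these for a gene called under any alternative. The cause of each change was not tested. With DESeq2's Wald test the other pathway genes called were 1 in the liver in place of 0, and 15 in the lung in place of 8. The lung count was 13 with no filter, 4 with limma-trend on log2(FPKM + 1) and 5 on log2(FPKM + 0.1). Leaving out each library in turn, the lung count ran from 0 to 10, the members called in the lung from 0 to 1, the liver members at the unadjusted threshold from 1 to 2, and the other liver genes at that threshold from 2 to 7. The members called between lung and liver ran from 9 to 10 on the CS diet and from 8 to 9 on the PS diet. Over all genes DESeq2 called 163 in the liver against 1, and 3090 in the lung against 1542, and with no filter they were 26 and 2306. Limma-trend called 980 and 988 in the lung. Replicate numbers were not a pairing: same-numbered CS and PS libraries correlated by -0.36 to -0.03 in the liver and -0.01 to 0.10 in the lung, and with that number as a replicate block 9 other lung pathway genes were called, 0 in the liver, and 2 at the unadjusted threshold there. The block left 1 lung member, 0 liver members and, unadjusted, 2 liver members called. With the mouse as a block, 9 members were called on each diet between lung and liver. Limma-trend on FPKM was not run between organs, since those tables were scaled separately. Depth limits Bmp4, Bmp5 and Bmp6 in the liver, with at most 65 counts.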
